A study of Mus musculus with 2 samples.

Results

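The genes described here encode the proteins of the mitochondrial ribosome, and they were chosen by symbol as every gene probe whose RefSeq accession named an Mrpl or Mrps gene, Mrpl for the large and Mrps for the small subunit. The array held 78 such genes among 20819 named genes, through 100 of its probes, and 77 of them were well above background on both arrays, among 16604 genes measured in that way. The cells were mouse ES cells derived from the E14 line, of 1 clone in which both Baf53a alleles carried CRISPR/Cas9 deletions and a Baf53a transgene could be shut off by tetracycline (Tet). They were transfected with an expression vector for Myc-tagged Baf53a or for Myc-tagged Baf53b, and 48 h later both cultures received 1 μg/mL Tet for 6 days, and the vector is the stated difference between the cultures, named Baf53a-expressing and Baf53b-expressing cells. Baf53a (Actl6a) and Baf53b (Actl6b) are related actin-like subunits of the BAF chromatin-remodeling complex, the former of stem and progenitor cells and the latter of neurons. RNA of each culture was hybridised to 1 single-colour array, and both arrays lay on the same slide, so there was no test of the conditions and every comparison below is a description of these 2 libraries.

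Mitochondria carry their own small genome, whose protein-coding genes all specify subunits of the respiratory chain. These are translated inside the organelle by a ribosome related to that of bacteria, while the proteins of that ribosome are encoded in the nucleus, made in the cytoplasm and imported. Some of them have a homologue in the bacterial ribosome and others are found only in mitochondria. The small subunit reads the mRNA, and the large subunit forms the peptide bond and passes the product through its exit tunnel to the inner membrane. By current structures, 51 of the 78 genes belonged to the large subunit, including Mrps18a and Mrps30 despite their symbols, and 26 to the small subunit, while Mrps36 is no longer counted as a ribosomal protein.

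The 2 arrays first were checked for depth and labels. A level is the log2 of the processed signal after the 75th percentile of each array, a signal of 1161 on the Baf53a and 1127 on the Baf53b array, was set to 0. The brightness of a probe also depends on its sequence, so levels are compared between arrays and not between genes. The level of Actl6b was −3.24 with the Baf53b vector, at least 14.5-fold above that with the Baf53a vector, where its probe could not be told from background. The level of Actl6a was 1.71 with the Baf53a and 1.68 with the Baf53b vector, so that its probe did not separate the arrays and checks neither label. Whether that probe detects transcripts of the deleted alleles is not given in the sources used here. The 7 genes taken as markers of ES cells were detected on both arrays, with differences from −0.15 to 0.07, and the 4 markers of primitive endoderm were detected with differences from 0.20 to 0.40. The latter were dim, at levels from −3.43 to −0.22. The median difference of all genes also rose toward dim genes, to 0.08 in the dimmest of 5 groups by brightness, as given below. How far brightness goes with these marker values was not tested. Differences ran from −0.17 to 0.37 for 4 markers of neurons and from −0.15 to 0.22 for 3 of fibroblasts. Of 2 trophoblast markers, 1 was detected on both arrays, at 0.18. Fewer cells of a type and less RNA per cell cannot be told apart in such bulk samples, and the part of these markers in the values below was not tested.

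Most mitochondrial ribosomal protein genes had a slightly lower signal in Baf53b-expressing than in Baf53a-expressing cells. The difference, the log2 level in Baf53b- minus that in Baf53a-expressing cells, was below 0 for 65 of the 77 measured genes (84.4%) and above 0 for 12, where 50.8% of all measured genes were below 0. Its median was −0.10, a change in signal of −6.69%, against −0.0031 over all genes, and the middle 50 percent of the members lay between −0.13 and −0.05. No member reached a 2-fold difference in either direction, which 0.193% of all genes did. No member reached even a 1.2-fold difference, which 3.41% of all genes reached toward lower and 8.48% toward higher signal in Baf53b-expressing cells. The full range of the members ran from −0.22 for Mrpl34 to 0.08 for Mrpl9.

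**Figure D1:**
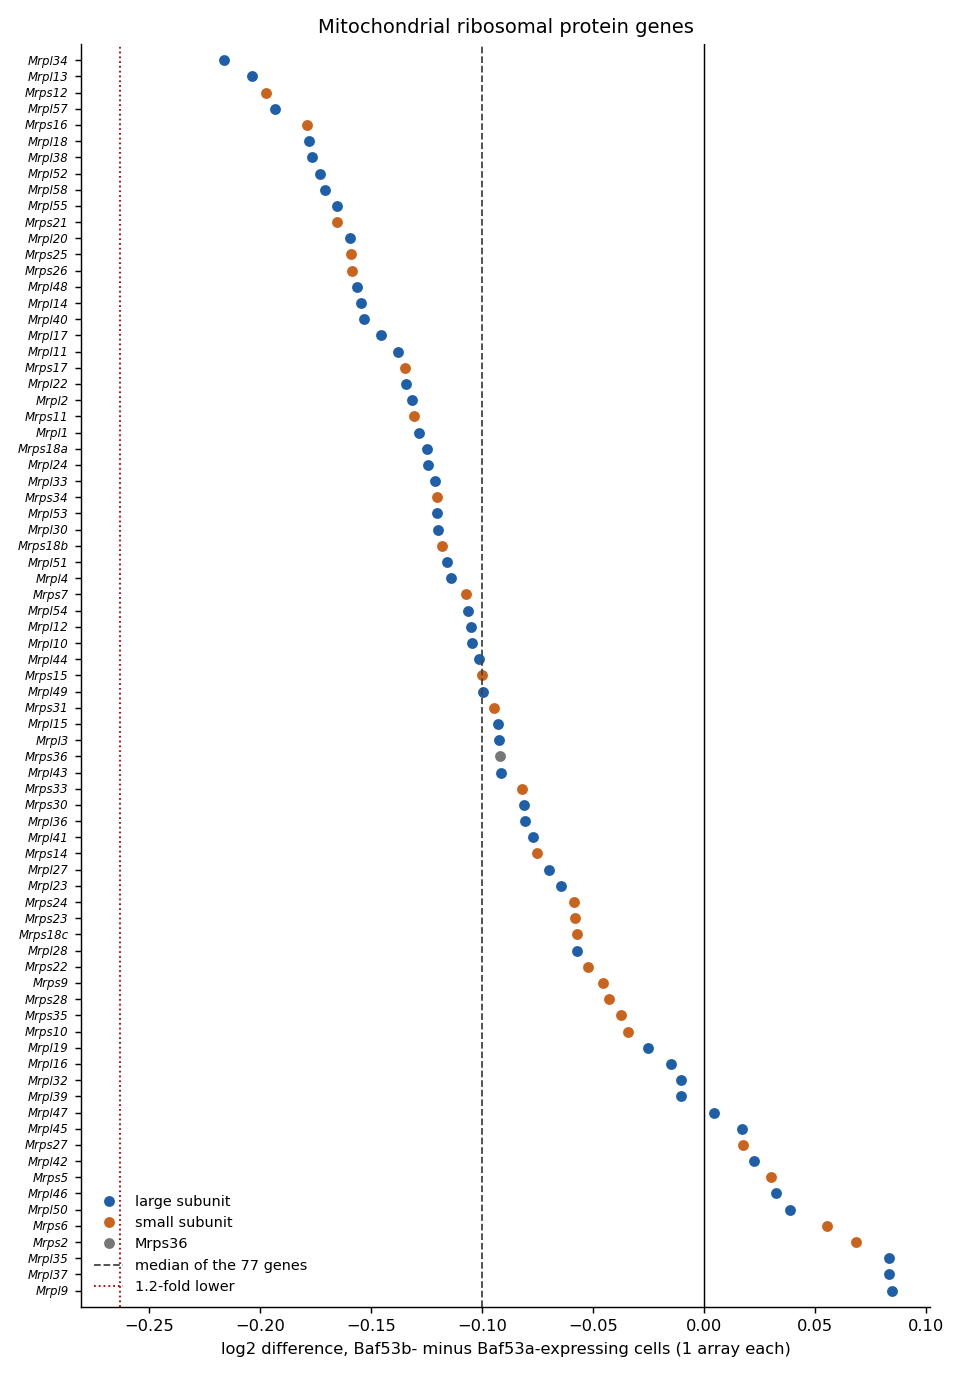
Log2 difference (Baf53b- minus Baf53a-expressing cells, 1 array each) on the horizontal axis for each of the 77 measured genes, in order; colours give the subunit. Of the points, 65 lie left of 0 and none reaches the dotted line at 1.2-fold lower, and both subunits are spread along the whole order.

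The lowest values belonged to genes of both subunits. Mrpl34, a small protein of the large subunit with a bacterial homologue, stood at 3.50 with Baf53a and 3.28 with Baf53b, a change in signal of −13.9%. Mrpl13, another large-subunit protein with a bacterial homologue, stood at 4.04 and 3.84 (difference −0.20). Mrps12, the homologue of the bacterial protein S12 beside the decoding centre, stood at 3.35 and 3.16 (difference −0.20). These 3 genes were each covered by 1 probe, and only Mrpl34 had repeated spots. Mrpl57, found only in mitochondrial ribosomes, stood at 4.66 and 4.47 (difference −0.19). Mrps16, of the small subunit, stood at 4.24 and 4.06 (difference −0.18). Mrpl18, of the large subunit, stood at 3.20 and 3.02 (difference −0.18). The last of the 8 lowest were both mitochondria-specific proteins of the large subunit. Mrpl38 stood at 1.15 and 0.97 (difference −0.18). Mrpl52 stood at 4.79 and 4.61 (difference −0.17).

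The 12 genes above 0 lay closer to it. Mrpl9, with a bacterial homologue, stood at 0.85 with Baf53a and 0.94 with Baf53b, a change in signal of 6.04%. Mrpl37, found only in mitochondria, stood at 0.75 and 0.84 (difference 0.08). Mrpl35, with a bacterial homologue, stood at −0.78 and −0.69 (difference 0.08). All 3 belong to the large subunit. Mrps2, a small-subunit protein with a bacterial homologue, stood at 0.02 and 0.09 (difference 0.07). Mrps6, also of the small subunit, stood at 3.66 and 3.72 (difference 0.06). Mrpl50, Mrpl46 and Mrps5 followed with differences of 0.04, 0.03 and 0.03. Mrpl21 was the exception among the 78 genes, since its single probe was not well above background on either array and gave no fold.

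The DNA before the start of the lowest and the highest gene is shown because the 2 windows carry different short motifs, which are counted over all members further on. Both are 250 bases upstream of the annotated RefSeq start in build GRCm38.p6, 5′ to 3′ on the strand of the gene, with motif letters in capitals. Mrpl34 lies on the plus strand (chr8:71464676-71464925) and holds CCGGAAG, the core bound by ETS factors, whose first base is 37 bases before the start. Mrpl9 lies on the plus strand (chr3:94443086-94443335) and holds GCGCATGCG, the core bound by NRF1, a factor known for driving nuclear genes of mitochondria, on both strands in overlapping matches that begin 28 and 27 bases before the start.
Mrpl34: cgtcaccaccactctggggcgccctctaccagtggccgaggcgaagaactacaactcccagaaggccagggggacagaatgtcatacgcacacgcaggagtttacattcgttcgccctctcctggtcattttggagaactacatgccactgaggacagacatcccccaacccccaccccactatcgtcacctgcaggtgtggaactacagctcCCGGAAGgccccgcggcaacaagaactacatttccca
Mrpl9: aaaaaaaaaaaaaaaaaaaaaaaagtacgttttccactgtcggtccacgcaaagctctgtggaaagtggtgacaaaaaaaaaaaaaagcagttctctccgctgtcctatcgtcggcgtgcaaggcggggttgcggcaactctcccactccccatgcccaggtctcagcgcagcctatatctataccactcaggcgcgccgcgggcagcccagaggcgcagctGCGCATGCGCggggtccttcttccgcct

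The subunits did not separate. The large subunit had a median difference of −0.11, with 42 of 50 measured genes below 0, and the small subunit one of −0.08, with 22 of 26 below 0. Genes with a bacterial homologue (median −0.10, 39 of 45 below 0) and genes particular to mitochondria (median −0.10, 25 of 31 below 0) likewise differed by less than the spread within each class. Mrps36 stood at 1.71 and 1.62.

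Smaller groups by position in the ribosome were drawn up after the values had been seen, and they are given as values only. The 3 genes of the stalk that recruits translation factors and of its base, Mrpl10, Mrpl11 and Mrpl12, stood at −0.10, −0.14 and −0.10. The 4 genes near the peptidyl transferase centre, Mrpl2, Mrpl3, Mrpl16 and Mrpl27, ran from −0.13 to −0.01. Around the rim of the exit tunnel the values were mixed. Mrpl22 and Mrpl24 stood at −0.13 and −0.12 and Mrpl23 at −0.06, while Mrpl47 and Mrpl45, the latter a protein that ties the ribosome to the inner membrane, stood at 0.0047 and 0.02. In the central protuberance, Mrpl38, Mrpl40 and Mrpl48 stood at −0.18, −0.15 and −0.16 and Mrpl46 at 0.03. The 3 paralogues Mrps18a, Mrps18b and Mrps18c, of which the first sits in the large subunit, had differences of −0.12, −0.12 and −0.06.

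With 1 array per condition the only repeats were spots of the same probe, which measure the array and not the culture. Of the member probes, 3 were printed 10 times on each array. The 10 spots of Mrpl34 ran from 3.37 to 3.60 on the Baf53a array (3.50 ± 0.06, SD of spots) and from 3.19 to 3.35 on the Baf53b array (3.28 ± 0.06), so that the spots did not overlap. The 10 spots of Mrps35, of the small subunit, gave 1.26 ± 0.03 and 1.22 ± 0.04 and overlapped. The brighter of the 2 probes of Mrpl50 gave 1.62 ± 0.03 and 1.73 ± 0.02, with no overlap, and lay higher in Baf53b-expressing cells. The spots thus separated 1 gene in each direction and left the third overlapping. Over the probes with repeated spots in the brightest of 5 equal groups of measured probes, the SD of spots made an error of 0.06. This error is that of a difference between 1 spot on each array. Genes were also split by brightness into 5 equal groups, and each gene was set against the error of the probe group of the same rank. The difference exceeded that error for 52 members toward lower and 4 toward higher signal in Baf53b-expressing cells, where 25.8% and 23.1% of all measured genes did so. It exceeded 2 times that error for 29 members, all lower, where 10.7% of all genes were lower by as much. Bright genes passed these limits more often. Among the 62 members in the brightest group, 75.8% were lower by more than the error and 43.5% by more than 2 times the error, against 51.1% and 24.4% of all genes of that group.

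**Figure D2:**
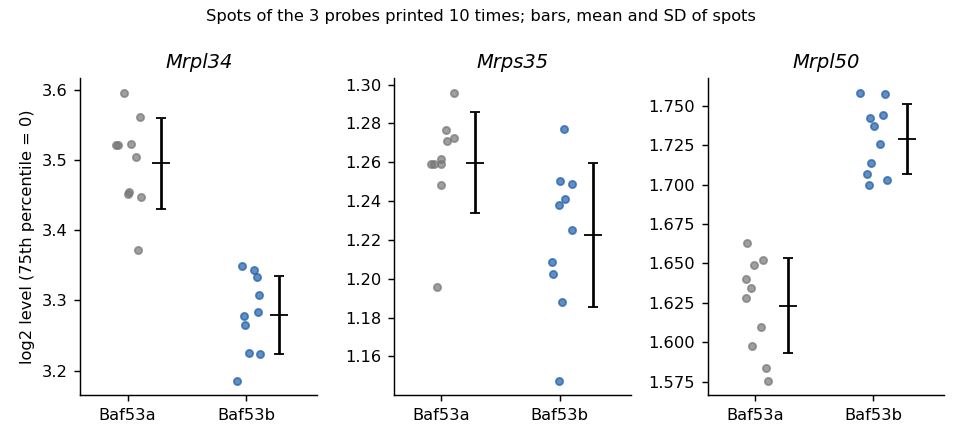
Levels of single spots (log2, 75th percentile of the array set to 0) for the 3 member probes printed 10 times, with mean and SD of spots; each panel has its own vertical range. The arrays do not overlap for Mrpl34, lower in Baf53b-expressing cells, or for Mrpl50, higher there, and overlap for Mrps35.

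Separate probes of the same gene are a further reading of each difference, on the same 2 RNA samples. Of the 22 genes with 2 measured probes, 17 had both probes below 0, 5 had probes of opposite sign and none had both above 0. The same count for all genes with 2 probes is not given here. As single values, 50.8% of all measured genes were below 0, and 75.9% of those in the brightest of the 5 groups. Mrpl41, of the large subunit, showed the widest range, with 0.10 for its dimmer and −0.26 for its brighter probe. Mrps2 had 0.18 and −0.05, and Mrpl39 had 0.08 and −0.11, again for the dimmer and the brighter probe. In these 3 genes the 2 probes differed in sign, and the mean given for the gene depends on their equal weight. Mrps26, next in range, had −0.08 and −0.24. In Mrpl50 the brighter probe was the higher (0.11 against −0.03). Over the 22 genes the brighter probe was the lower of the pair in 13, the median range between probes was 0.09, and the medians of the dimmer and of the brighter probes were −0.09 and −0.10.

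Over all genes, the difference moved with brightness, and the members were bright. When the 16604 genes were ordered by mean level and split into 5 equal groups, the median difference fell from 0.08 in the dimmest group through 0.04, 0.01 and −0.02 to −0.06 in the brightest. The brightest group held 62 of the 77 members (80.5%), the next 14 and the middle group 1. Within the brightest group, 57 of the 62 members were below 0, where 75.9% of all its genes were, and the median difference was −0.11 against −0.06. None of these 62 genes was 1.2-fold lower, against 1.05% of the group. Of the 14 members in the next group, 8 were below 0, where 57.4% of all its genes were. Their median was −0.02, as was that of all genes of that brightness. Measured from the median of its own group, the difference was below 0 for 54 of the 77 members, with a median of −0.04. How much of the lower signal of the members goes with their brightness was not tested beyond these values.

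**Figure D3:**
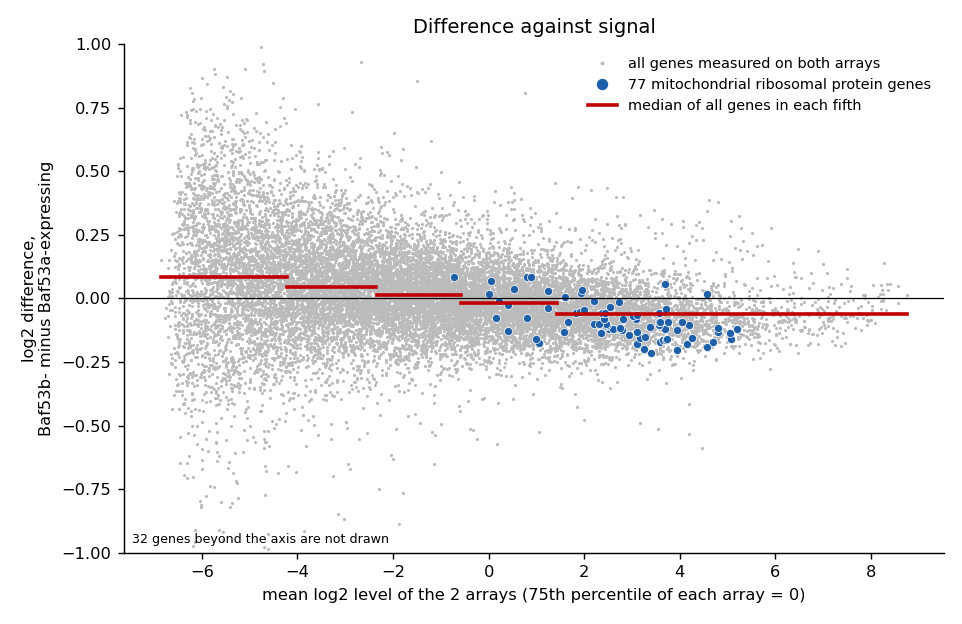
Log2 difference against the mean log2 level of the 2 arrays for all measured genes (grey; 32 genes beyond the axis not drawn), the 77 members (blue) and the median of each of 5 equal groups by brightness (red). The red lines step down from 0.08 to −0.06, and the members lie at the bright end, mostly under the last line.

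Genes that work with the mitochondrial ribosome were compared as lists, each described by its median and its count below 0. For these counts, the share of all measured genes below 0 was 50.8%, and it was 75.9% in the brightest group. Of the 5 ribosomal proteins that carry other symbols, 4 were below 0 (median −0.08). Aurkaip1 was the lowest, at 5.80 with Baf53a and 5.56 with Baf53b, and its 2 probes gave −0.24 and −0.23. Chchd1 stood at −0.11, Dap3, a GTP-binding protein of the small subunit, at −0.08 and Ptcd3 at −0.05. Gadd45gip1 was the one above 0, at 0.05, from probes at 0.13 and −0.04.

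Among factors for mitochondrial translation, 10 of 14 measured genes were below 0 (median −0.09). The lowest was Taco1, an activator of translation of a cytochrome oxidase subunit, at −0.13, and the highest Mtif2, the initiation factor, at 5.77 and 5.92 (difference 0.15). Proteins that assemble the ribosome had a median of −0.06, with 19 of 25 below 0. Noa1, a GTPase, was their lowest at −0.18. Fastkd2, an RNA-binding protein, was their highest at 0.63, from a single dim probe at −5.65 and −5.03, and was the only gene past 1.2-fold among the assembly factors, the translation factors and the ribosomal proteins with other symbols. With normexp background correction it stood at 0.20, short of 1.2-fold.

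Mitochondrial aminoacyl-tRNA synthetases, which charge the tRNAs for this ribosome, had a median of −0.03, and 11 of 17 were below 0. They ran from Mars2 at −0.18 to Lars2 at 0.06. All 4 genes of mitochondrial transcription were below 0 (median −0.07), from Polrmt, the mitochondrial RNA polymerase, at −0.13 to Tefm, its elongation factor, at −0.03. The translation, assembly, synthetase and transcription lists were dimmer than the members. In that order, 28.6%, 36.0%, 17.6% and none of their genes were in the brightest group, against 80.5% of the members. Measured from the median of its own group, the difference had medians of −0.05, −0.04, −0.05 and −0.05, against −0.04 for the members.

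Cytoplasmic ribosomal proteins and nuclear-encoded subunits of the respiratory chain served as 2 bright lists for comparison. The 85 cytoplasmic ribosomal protein genes had a median difference of −0.06, with 69 below 0, from Rpl28 at −0.22 to Rpl37a at 0.14. In the brightest group, 83 of them had a median of −0.06, and 81.9% were below 0 against 75.9% of all genes of that group. Measured from the median of their own groups, the 85 genes came to 0.0025. The 84 measured respiratory chain genes had a median of −0.10, with 79 below 0. They ran from Ndufs7, a subunit of complex I, at −0.59 to Cox7b2, an isoform of a complex IV subunit, at 0.29. Each of these 2 values came from a single probe, and that of Cox7b2 was dim, at −4.06 and −3.77. In this list, 2 genes were at least 1.2-fold lower and 1 at least 1.2-fold higher, where no member was either. The shares of all genes were 3.41% and 8.48%. In the brightest group, 77 respiratory chain genes had a median of −0.10 with 75 below 0, and measured from their own groups the list came to −0.04. The median of the mitochondrial ribosomal genes thus lay near that of the respiratory chain genes, and the median of the cytoplasmic ribosomal genes was near that of all bright genes. The differences between these lists were not tested.

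**Figure D4:**
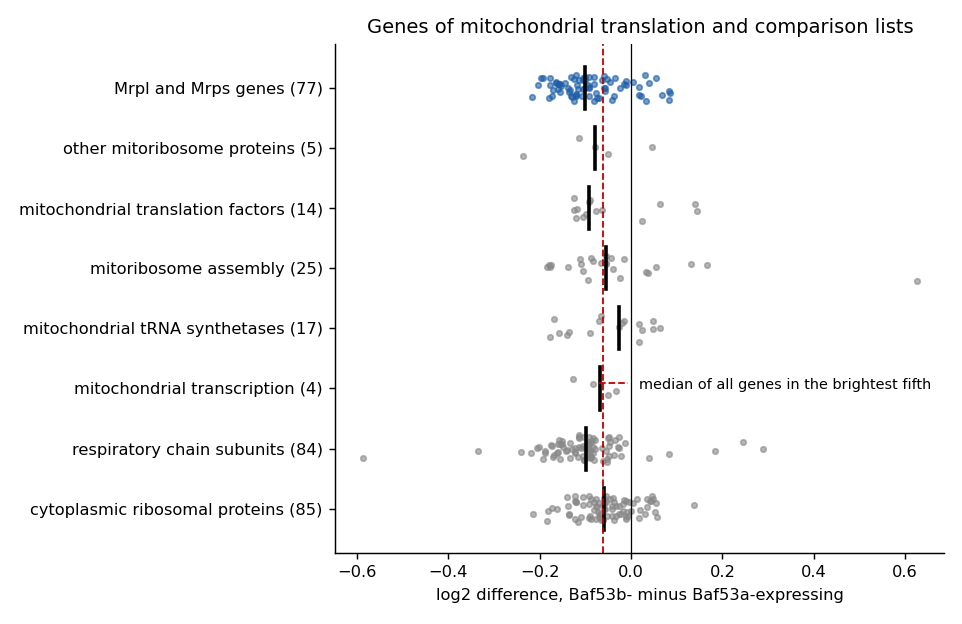
Log2 difference (Baf53b- minus Baf53a-expressing cells) of each measured gene of the members and of 7 lists, with the number of genes in brackets; black bars are medians, the dashed line the median of all genes in the brightest of 5 groups. The medians of the members and of the respiratory chain genes lie left of the dashed line, at −0.10 each, and that of the cytoplasmic ribosomal genes, −0.06, lies close to it.

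The windows around the starts of the members were richer in GC and in some short motifs than those of all genes. RefSeq windows of 300 bases, 250 before and 50 after the start, were at hand for 69 of the 78 members (75 windows) and for 27025 genes in all (32851 windows). Their median GC content was 58.7% against 52.7%, and they held a median of 21 CpG dinucleotides against 7. The ETS core CCGGAAG, searched on both strands, was found in 26 of the 75 windows (34.7%) against 8.86% of all windows. AAGATGGC, the core bound by YY1, was found in 16.0% against 2.75%, the NRF1 core GCGCATGCG in 9.33% against 1.75%, and the E-box CACGTG, the core bound by Myc, in 9.33% against 7.15%. The 7 member windows with an E-box belonged to 5 genes, since overlapping windows of Mrpl2 each held it. Counted by gene, 5 of the 69 members held an E-box and 2187 of all 27025 genes, so the members no longer had the larger share. The shares also moved with brightness. Counted by gene in the brightest group, 42.9% of 56 members with a window held the ETS core against 26.4% of all 2722 genes, 16.1% held the YY1 core against 6.58%, and 8.93% held the NRF1 core against 4.78%. For the E-box the shares were 7.14% of these members against 14.2% of all genes of the group. A match is a description of these letters and no evidence of binding in these cells.

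The motifs were then set beside the measured differences. The 25 measured members with an ETS core had a median difference of −0.12 and the 43 without it one of −0.08. Brightness moved with the motif, since 24 of those 25 genes were in the brightest group. Within that group the medians were −0.13 with the core and −0.10 in the 32 members without it, and over all genes of the group that had a window they were −0.08 (719 genes) and −0.06 (2003 genes). For the YY1 core the medians were −0.07 in 12 members that held it and −0.10 in 56 that did not. Within the brightest group they were −0.10 in 9 members with it and −0.12 in 47 without it. Over all genes of that group that had a window they were −0.07 with and −0.06 without this core. For the NRF1 core both medians were −0.10 (7 and 61 members), and within the brightest group −0.12 with and −0.10 without it (5 and 51 members). For the E-box they were −0.08 and −0.10 (5 and 63 members), and within the brightest group both were −0.11 (4 and 52 members).

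Many members start back to back with a neighbour. In 24 of the 69 genes (34.8%) the start window overlapped that of a gene on the opposite strand, as in 11.9% of all genes with a window. These shares were not split by brightness. The 24 genes made 23 pairs, 1 of them of 2 members. In 20 pairs of a member with another gene both were measured, with a median of −0.10 for the member and −0.06 for the partner, and both were below 0 in 12. Over all 21 measured pairs, with Mrps11 taken as the partner of Mrpl46, 15 members and 16 partners were below 0. Of all measured genes, 50.8% were below 0. Mrps12 and Sars2, the mitochondrial seryl-tRNA synthetase, stood at −0.20 and −0.07. Mrpl49 and Fau, which encodes a cytoplasmic ribosomal protein, stood at −0.10 and −0.09. Mrpl46 and Mrps11, both members, stood at 0.03 and −0.13, and Mrpl37 and Cyb5rl at 0.08 and −0.25. Values were similar in some of these pairs, which were chosen after the values were seen, and of opposite sign in others. Whether a shared start region goes with similar values was not tested.

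The normalization set how far the members lay below 0. Quantile normalization gives both arrays the same distribution of values, and a loess curve removes the trend with brightness. With either, the median of the members was −0.05, with 60 and 61 genes below 0 in that order, and the medians of all genes were −0.01 in both. Under every processing tried, the median of the members stayed below that of all genes.

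**Figure D5:**
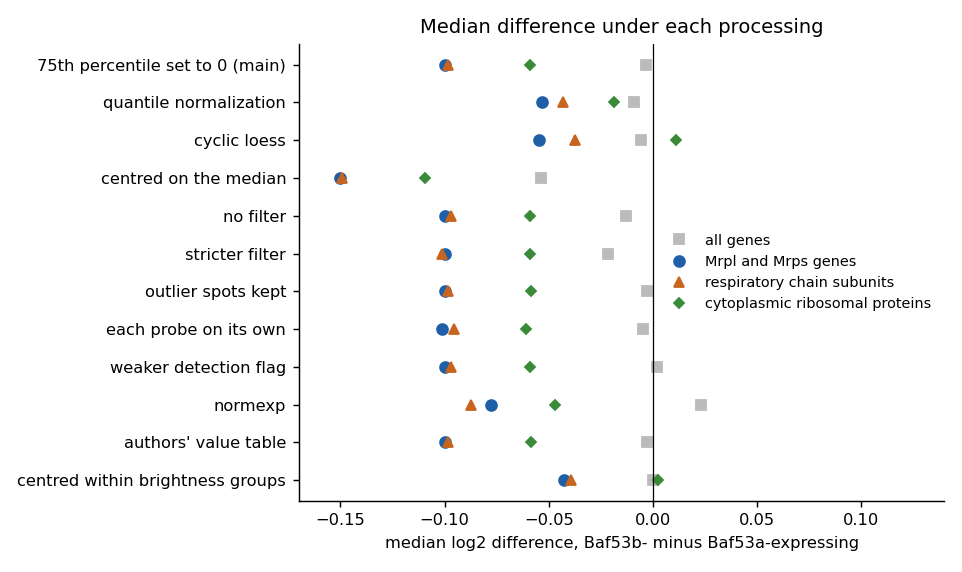
Median log2 difference (Baf53b- minus Baf53a-expressing cells) under each processing for all genes (squares), the members (circles), respiratory chain subunits (triangles) and cytoplasmic ribosomal proteins (diamonds). The circles lie left of the squares in every line, nearest to 0 at −0.04 when centred within brightness groups, while the diamonds cross 0 with cyclic loess and with that centring.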

How the data were processed

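RNA of Baf53a- and Baf53b-expressing cells was measured on 1 array each. The authors extracted the images with Agilent Feature Extraction 11.0.1.1 and deposited a background-subtracted intensity for each spot, with flags. The deposited value table holds a ratio per probe, the processed signal divided by 1 number per array (1160 and 1126). The text of the study does not name this scaling. It was used as an alternative.

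After removal of control spots and flagged outlier spots, log2 intensities were averaged by probe and then by gene, and the 75th percentile was set to 0. A probe counted as measured when at least 50% of its spots were well above background on both arrays. No spot of a member probe was saturated. RefSeq accessions matched to a GRCm38.p6 gene table gave names to 27404 of 39411 probes. The array design was annotated on mm9, and that table served for names and start windows only. No test was possible with 1 array per condition, and the number of arrays limits the precision.

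The members and the gene lists were chosen with earlier results of these data known. The rule for named genes took the 8 members lowest and highest, members not measured, the 4 with the widest range between probes, members past 2-fold, and the lowest and highest gene of each list. Ribosomal proteins with other symbols and the pair of BAF genes were also named. Members grouped by position and neighbours at shared starts were chosen after their values were seen. The scripts (Python 3.11.15, pandas 2.3.3, numpy 2.4.6; R 4.3.3 with limma 3.58.1) were tested on simulated data. Alternatives were quantile and cyclic loess normalization, centring on the median, no filter and a stricter one, outlier spots kept, single probes, a weaker detection flag, normexp background correction with an offset of 50, and the deposited table.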

Additional observations from a re-analysis of the deposited data

How the results depend on the processing

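No paired analysis was possible because each condition had 1 array, and for the same reason no replicate could be left out. The median of the members stayed below 0 under all 11 alternatives, 10 of them planned and centring within brightness groups chosen after seeing the data. With quantile normalization it was −0.0533 (large subunit −0.0563, small subunit −0.0313, cytoplasmic ribosomal proteins −0.0189, respiratory chain −0.0433). With cyclic loess it was −0.0546 (in the same order −0.0576, −0.0398, 0.0112 and −0.0375), and centred within brightness groups −0.0427 (−0.0481, −0.0262, 0.0025 and −0.0393), so that the cytoplasmic ribosomal proteins changed sign in both. Cyclic loess and this centring remove the trend with brightness by construction, while quantile normalization gives both arrays the same distribution of values. Centred on the median it was −0.1504 (−0.156, −0.129, −0.1093 and −0.1491), the translation factors came to −0.1419, and 1 member was 1.2-fold lower. The median of all genes moved from −0.0031 to −0.0537 there. With normexp the members came to −0.0776 and the respiratory chain to −0.0871. Without the filter, or with the weaker flag, 1 member was 1.2-fold higher, Mrpl21, whose probe was not well above background on either array. Of the 36 named genes, 18 moved by more than the spot error with centring within brightness groups, 11 with quantile normalization, 7 with cyclic loess and 2 with normexp. The stricter filter left out Fastkd2 and Cox7b2. Depth limits dim probes most: the spot error of a difference was 0.27 in the dimmest and 0.06 in the brightest of 5 groups of probes.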
